A study of Homo sapiens with 24 samples.

Results

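The p53 axis genes were 9 genes of the pathway around the transcription factor p53, read out here by the chromatin regions in and around them whose accessibility was called changed after CDK9 inhibition. They were the negative regulators MDM2, MDM4 and PPM1D and the p53 target genes CDKN1A, BTG2, GADD45A, GADD45B, SESN1 and TP53INP1, 9 of the 20098 protein-coding genes on chromosomes 1 to 22 and X. A region was assigned to a gene when it lay within 10 kb of a transcription start site (TSS) of that gene, counting the transcripts tagged basic in the annotation, or overlapped its gene body, and 16 of the 26369 distinct regions in the series did so. The rule is one of position and uses no measured value. The region of these genes lying farthest from a TSS outside a gene body was 8902 bp from that of BTG2, and the nearest called region left outside lay 11200 bp from a TSS of CDKN1A and was increased in VAL 8 h.

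The measurements were ATAC-seq libraries, in which a transposase cuts and tags open DNA, from OCI-LY3 and VAL, established human cell lines of diffuse large B-cell lymphoma (DLBCL). Cells were exposed to 30 nM AZD4573, an inhibitor of the kinase CDK9, for 0, 3 or 8 h. Each line and time had 4 libraries, of which 2 carry the label of a standard protocol on 50000 cells and 2 that of Fast-ATAC on 5000 cells (50000 in the protocol text), 24 in all. The authors set each treated time against the untreated control within each line and deposited the positions of increased regions and of decreased regions, 8 lists in all. The lists call this control DMSO and the sample labels give 0 h, and they are taken here as the same libraries. Both lines are grown from lymphomas and stand for no normal B cell. The comparisons are named here by line and time (VAL 3 h, VAL 8 h, OCI-LY3 3 h and OCI-LY3 8 h), and those of the same line then share their 0 h libraries. The lists hold no count, fold change or p-value, so the depth of the libraries is unknown, no spread between replicates and no size of a change can be given, and the differences between comparisons below were not tested. A region absent from a list may be open and unchanged, closed, or short of the authors' threshold, and these cannot be told apart.

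The protein p53 is a transcription factor that binds DNA as a tetramer, at paired short recognition elements, and turns on genes that halt the cell cycle, repair DNA or start apoptosis. MDM2, a ubiquitin ligase, and its relative MDM4 hold p53 in check, and MDM2 is itself a p53 target, which closes a feedback loop. CDK9 phosphorylates RNA polymerase II and releases it into elongation, so its inhibitors lower short-lived transcripts first. Open chromatin at a promoter or enhancer is a measure of access to DNA and not of transcription.

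Sequences matching the p53 recognition element were searched first, because they mark where p53 could bind near these genes. The element was taken as a pair of 10-base half-sites, each 3 purines, the core and 3 pyrimidines, separated by 0 to 13 bases, with at most 2 mismatches over the pair and the C and G of both cores kept. The windows of the 9 genes, 411633 bp together, held 50 such pairs, some of them overlapping, and the called regions, which covered 6.75% of these windows, held 5. At most 1 mismatch left 7 pairs, of which 1 lay in a called region, and 0 mismatches left 1 pair, which did not. The pairs below are those inside the called regions of CDKN1A, MDM2, MDM4, PPM1D and GADD45B, and then, outside called regions, the pairs of CDKN1A and GADD45A with at most 1 mismatch and the CDKN1A pair nearest its canonical TSS. They are printed 5′ to 3′ on the strand of the gene, in lower case with the half-sites in capitals, from the GRCh37 sequence.
CDKN1A, −11456: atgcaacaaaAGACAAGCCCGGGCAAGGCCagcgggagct
MDM2, +746: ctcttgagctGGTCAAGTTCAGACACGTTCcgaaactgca
MDM4, +527: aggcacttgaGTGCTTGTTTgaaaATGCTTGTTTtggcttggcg
PPM1D, +44: GGCCCAGCTCtcgcGGACAAGTCC
GADD45B, −1097: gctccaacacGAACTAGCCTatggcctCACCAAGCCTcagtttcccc
CDKN1A, −2265, outside: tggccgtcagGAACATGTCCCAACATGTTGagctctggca
CDKN1A, +5129, outside: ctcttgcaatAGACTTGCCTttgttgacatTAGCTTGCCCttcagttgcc
GADD45A, +1574, outside: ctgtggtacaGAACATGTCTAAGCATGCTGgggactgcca
GADD45A, +6635, outside: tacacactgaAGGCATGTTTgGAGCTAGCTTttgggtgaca

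The numbers give the distance of the first base from the canonical TSS in bp, negative upstream. The CDKN1A pair at −11456 had 1 mismatch and a spacer of 0 bases, and it was the pair with the fewest mismatches in any called region of these genes. The MDM2 pair at +746 had 2 mismatches and a spacer of 0 bases and lay in intron 1 (chr12:69202703-69202722). The MDM4 pair (chr1:204486061-204486084) lay in intron 1, the PPM1D pair (chr17:58677598-58677621) in the exon that holds the TSS, and the GADD45B pair (chr19:2475028-2475054) upstream of the gene. These 3 had 2 mismatches each, with spacers of 4, 4 and 7 bases. Over all regions of the series 15.0% held at least 1 such pair, and 5 of the 16 regions of the p53 axis genes did. At most 1 mismatch left 3.53% of all regions and 1 of the 16. A match is a run of letters and not a measured binding site.

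Across the 4 comparisons the calls at these genes were mostly increases. Of the 16 regions, 13 were in lists of increased regions and 3 in lists of decreased ones. Of all 26369 regions, near genes or not, 51.2% were in lists of increased regions alone. In the series, 37.2% of increased-only and 7.25% of decreased-only regions lay within 1 kb of the TSS of a protein-coding gene. The 16 regions were admitted by closeness to genes, so 51.2% is not a like-for-like base. In VAL, 7 regions were increased and 1 decreased at 3 h, and 10 were increased and 2 decreased at 8 h. In OCI-LY3, 3 were increased at 3 h and 6 at 8 h, and 0 were decreased at either time. The plot of called regions per gene shows these counts.

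**Figure D1:**
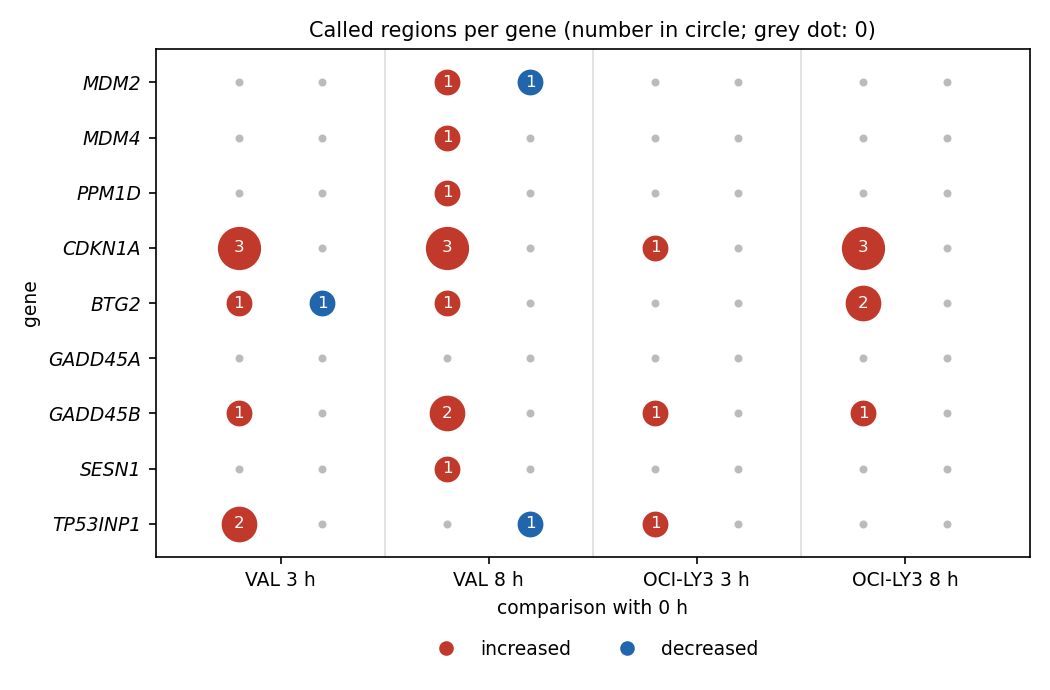
Number of regions called increased (red) and decreased (blue) for each of the 9 p53 axis genes in each comparison with 0 h. The circles carry the number of regions and grey dots stand for 0. CDKN1A and GADD45B had an increased region in all 4 comparisons, and GADD45A had none.

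Counted by gene, 4 of the 9 genes had an increased region in VAL 3 h (CDKN1A, BTG2, GADD45B and TP53INP1), while 17.0% of all protein-coding genes did by the same rule. In VAL 8 h it was 7 of 9, all but GADD45A and TP53INP1, against 37.0% of all genes. In OCI-LY3 3 h it was 3 of 9 (CDKN1A, GADD45B and TP53INP1) against 10.7%, and at 8 h 3 of 9 (CDKN1A, BTG2 and GADD45B) against 19%. A decreased region was present for 1 gene in VAL 3 h (BTG2) against 4.71% of all genes, and for 2 genes in VAL 8 h (MDM2 and TP53INP1) against 14.3%. In OCI-LY3 0 of 9 genes had a decreased region, against 5.31% of all genes at 3 h and 8.20% at 8 h. The windows of the 9 genes had a median length of 33407 bp and those of all protein-coding genes one of 36862 bp.

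Promoters, taken as 1 kb on either side of a TSS, were counted apart. An increased promoter region was present at 4 of the 9 genes in VAL 3 h (background 10.3% of all genes), at 7 in VAL 8 h (25.2%), at 1, GADD45B, in OCI-LY3 3 h (5.94%) and at 3 in OCI-LY3 8 h (9.33%). A decreased promoter region was present at 0 of the 9 genes in all 4 comparisons. The shares of all genes with one were 0.323% and 3.39% in VAL 3 h and 8 h, and 0.697% and 1.29% in OCI-LY3. Of the 13 increased regions 8 lay within 1 kb of a TSS of their gene, and of the 3 decreased regions 0 did. Over the series, 37.2% of increased-only and 7.25% of decreased-only regions lay within 1 kb of the TSS of a protein-coding gene. These shares cover all regions wherever they lay. The 16 regions were admitted by their closeness to a TSS or gene body, so the counts and shares are not like for like.

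**Figure D2:**
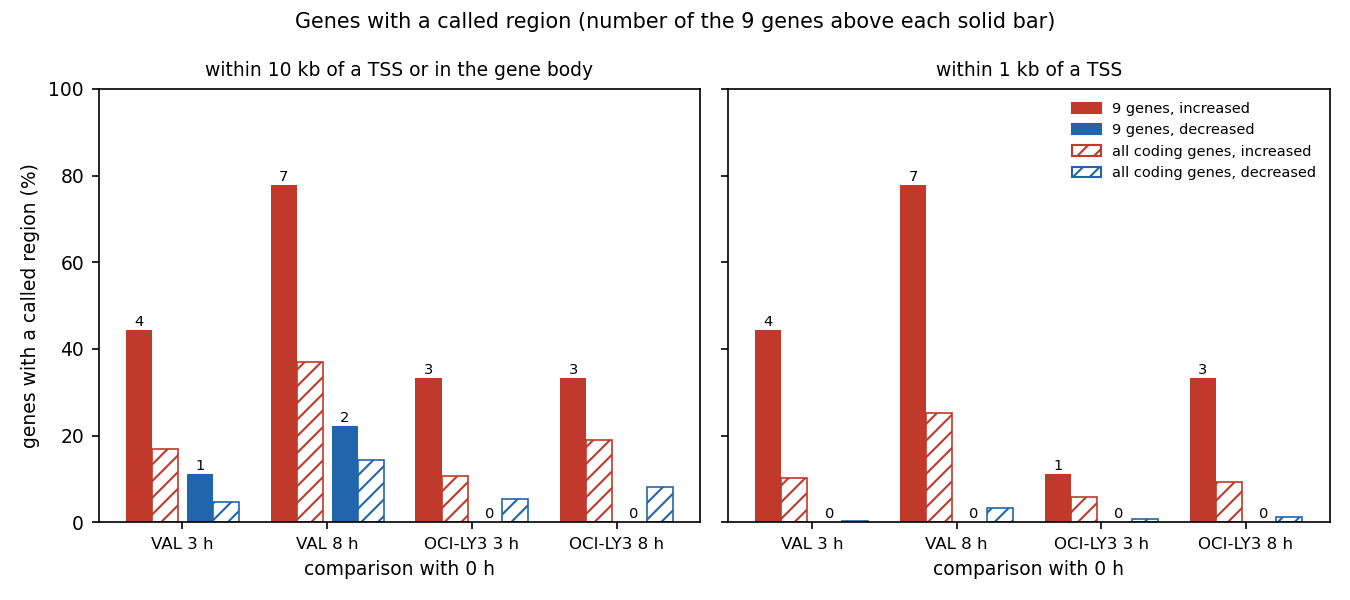
Share of the 9 p53 axis genes (solid bars, with the number of genes above) and of all 20098 protein-coding genes (hatched bars) that had a region called increased (red) or decreased (blue) in each comparison, by the 10 kb or gene body rule on the left and within 1 kb of a TSS on the right, in %. The solid red bars are higher than the hatched red bars in all 4 comparisons, with 7 of 9 genes against 37.0% in VAL 8 h on the left. On the right, the bar of OCI-LY3 3 h is 1 gene, GADD45B. On the left, the solid blue bars are also higher than the hatched ones in VAL, with 1 of 9 against 4.71% at 3 h and 2 of 9 against 14.3% at 8 h, and are 0 in OCI-LY3.

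Among the negative regulators, calls were present in VAL 8 h and in no other comparison. An increased region in VAL 8 h as the sole call, as at MDM4, PPM1D and SESN1, was the set of calls of 13.5% of all protein-coding genes. MDM2, the ubiquitin ligase that marks p53 for degradation, lies on the forward strand of chromosome 12 (chr12:69201957-69239324, hg19). A region of 1865 bp at its start, chr12:69201152-69203016, was increased in VAL 8 h and in none of the other 3 comparisons. It ran from −805 to +1059 bp and covered exons 1 and 2 and intron 1 between them. It contained all 6 TSS of the gene tagged basic, including those at +825, +847 and +1035 downstream of the pair at +746. A second region, chr12:69223403-69225148, lay in intron 8 of the same gene, held 0 p53 pairs and was decreased in the same comparison.

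MDM4, which binds and inhibits the activation domain of p53, had 1 region, chr1:204484681-204486228, of 1548 bp. It ran from −853 to +694 bp over the TSS and exon 1 and was increased in VAL 8 h alone. Of 4 TSS of MDM4 tagged basic it covered 2, and those farther downstream, at +9084 and +9113 bp, lay in no called region.

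PPM1D, also called WIP1, is a phosphatase that removes activating phosphates from p53 and from the kinases upstream of it. Its region, chr17:58676756-58679482, was increased in VAL 8 h alone. With 2727 bp it was among the widest, since 0.949% of all increased-only regions, at promoters or elsewhere, were at least as wide. It covered both TSS tagged basic and exon 1 and held a match to the cyclic AMP response element, CRE (TGACGTCA), upstream of the TSS. CRE matches were present in 1.68% of all regions and in 4.02% of the regions within 10% of this width. PPM1D lies on chromosome 17, where 98.7% of all regions called in VAL 8 h were increased and 69.6% of genes had an increased region, and the part of this in the PPM1D call was not tested.

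Of the target genes, CDKN1A had 3 increased regions in 3 of the 4 comparisons, which no other of the 9 genes had in any. It encodes p21, an inhibitor of cyclin-dependent kinases that stops the cell cycle, and lies on chromosome 6 (chr6:36644237-36655114). Its 3 regions were all increased in VAL 3 h, in VAL 8 h and in OCI-LY3 8 h, whereas in OCI-LY3 3 h 1 of the 3 was. At least 3 increased regions were counted for 0.955%, 5.98% and 1.27% of all genes in these comparisons, in that order.

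The widest of the 16 regions was the promoter region of CDKN1A, chr6:36645939-36648865, with 2927 bp. Of all increased-only regions of the series, at promoters or elsewhere, 0.193% were at least as wide. This promoter region ran from −552 to +2374 bp, covered exon 1 and 3 of the 5 TSS tagged basic, and overlapped DINOL, a long noncoding RNA on the opposite strand. It was increased in VAL at both times and in OCI-LY3 8 h. The intron 1 region, chr6:36649800-36651112, at +3309 to +4621 bp, was increased in all 4 comparisons. The far upstream region, chr6:36634495-36635793, at −11996 to −10698 bp, was increased together with the promoter in VAL 3 h and 8 h and in OCI-LY3 8 h, and it held the pair with 1 mismatch printed above. The pair at −2265 (chr6:36644226-36644245) lay 1693 bp outside the edge of the promoter region and in no called region. The TSS of longer transcripts at −2254 and −2224 bp were in no called region either.

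BTG2, an antiproliferative protein that acts on mRNA deadenylation, lies on chromosome 1 (chr1:203274619-203278730). Its promoter region, chr1:203273819-203276639, was 2821 bp wide, ran from −828 to +1992 bp over exons 1 and 2, and was increased in VAL at both times and in OCI-LY3 8 h. It also overlapped BTG2-DT, a long noncoding RNA on the opposite strand. An upstream region at −9828 to −8902 bp, chr1:203264819-203265745, was increased in OCI-LY3 8 h alone. The smallest of the 16 regions, 514 bp wide at chr1:203280531-203281044 and 5884 bp downstream of the TSS, was decreased in VAL 3 h alone. BTG2 thus had calls of both directions in VAL 3 h, increased at its promoter and decreased downstream. Its 3 p53 pairs all lay outside the called regions, the one nearest the promoter region by 1029 bp.

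The GADD45 genes encode small proteins that bind stress kinases and take part in the DNA damage response, and the calls at GADD45A and GADD45B are given in turn. GADD45B, on chromosome 19 (chr19:2476120-2478257), had its promoter region, chr19:2474742-2477349, increased in all 4 comparisons. This region of 2608 bp ran from −1383 to +1224 bp, covered both TSS tagged basic and exons 1 to 3, and held the pair at −1097. A second region of 904 bp, chr19:2478539-2479442, lay downstream of the gene and was increased in VAL 8 h alone. On chromosome 19, between 97.2% and 99.6% of all called regions were increased in the 4 comparisons, and between 22.1% and 64.9% of its genes had an increased region. Without GADD45B, an increased region was counted for 3, 6, 2 and 2 of the other 8 genes in VAL 3 h and 8 h and in OCI-LY3 3 h and 8 h.

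GADD45A, on chromosome 1 (chr1:68150884-68154017), had 0 called regions in its window in all 4 comparisons, as 42.9% of all protein-coding genes did. The nearest called region was decreased in VAL 8 h and lay 43013 bp downstream of its TSS. Its window nevertheless held 10 p53 pairs. They included the only pair with 0 mismatches among the 9 genes, at +6635 bp downstream of the gene (chr1:68157519-68157539), and a pair with 1 mismatch in intron 3 at +1574 bp (chr1:68152458-68152477). No called region covered either, and whether chromatin there was open could not be read from the lists.

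SESN1, a stress-induced regulator of mTORC1 signalling, lies on the reverse strand of chromosome 6 (chr6:109305512-109416049). Its region, chr6:109329724-109331485, was increased in VAL 8 h alone. It did not lie at the canonical TSS but 84564 to 86325 bp downstream of it, where it covered the TSS of shorter transcripts at +85291 and +85858 bp. The canonical TSS of SESN1 was in no called region, and none of its 7 p53 pairs was in the called region.

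TP53INP1, which promotes p53 activity and autophagy, lies on the reverse strand of chromosome 8 (chr8:95938200-95961606) and had increased calls at 3 h and none at 8 h. Its promoter region, chr8:95960605-95962636, of 2032 bp, was increased in VAL 3 h and in no other comparison. A region over exon 2, chr8:95953057-95954493, was increased at 3 h in both VAL and OCI-LY3 and was in none of the 8 h lists. A region inside the noncoding part of exon 4, the last exon, chr8:95940336-95941680, was decreased in VAL 8 h alone. All 3 regions also overlapped NDUFAF6, an assembly factor of mitochondrial complex I encoded on the opposite strand, and cannot be assigned to TP53INP1 alone.

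**Figure D3:**
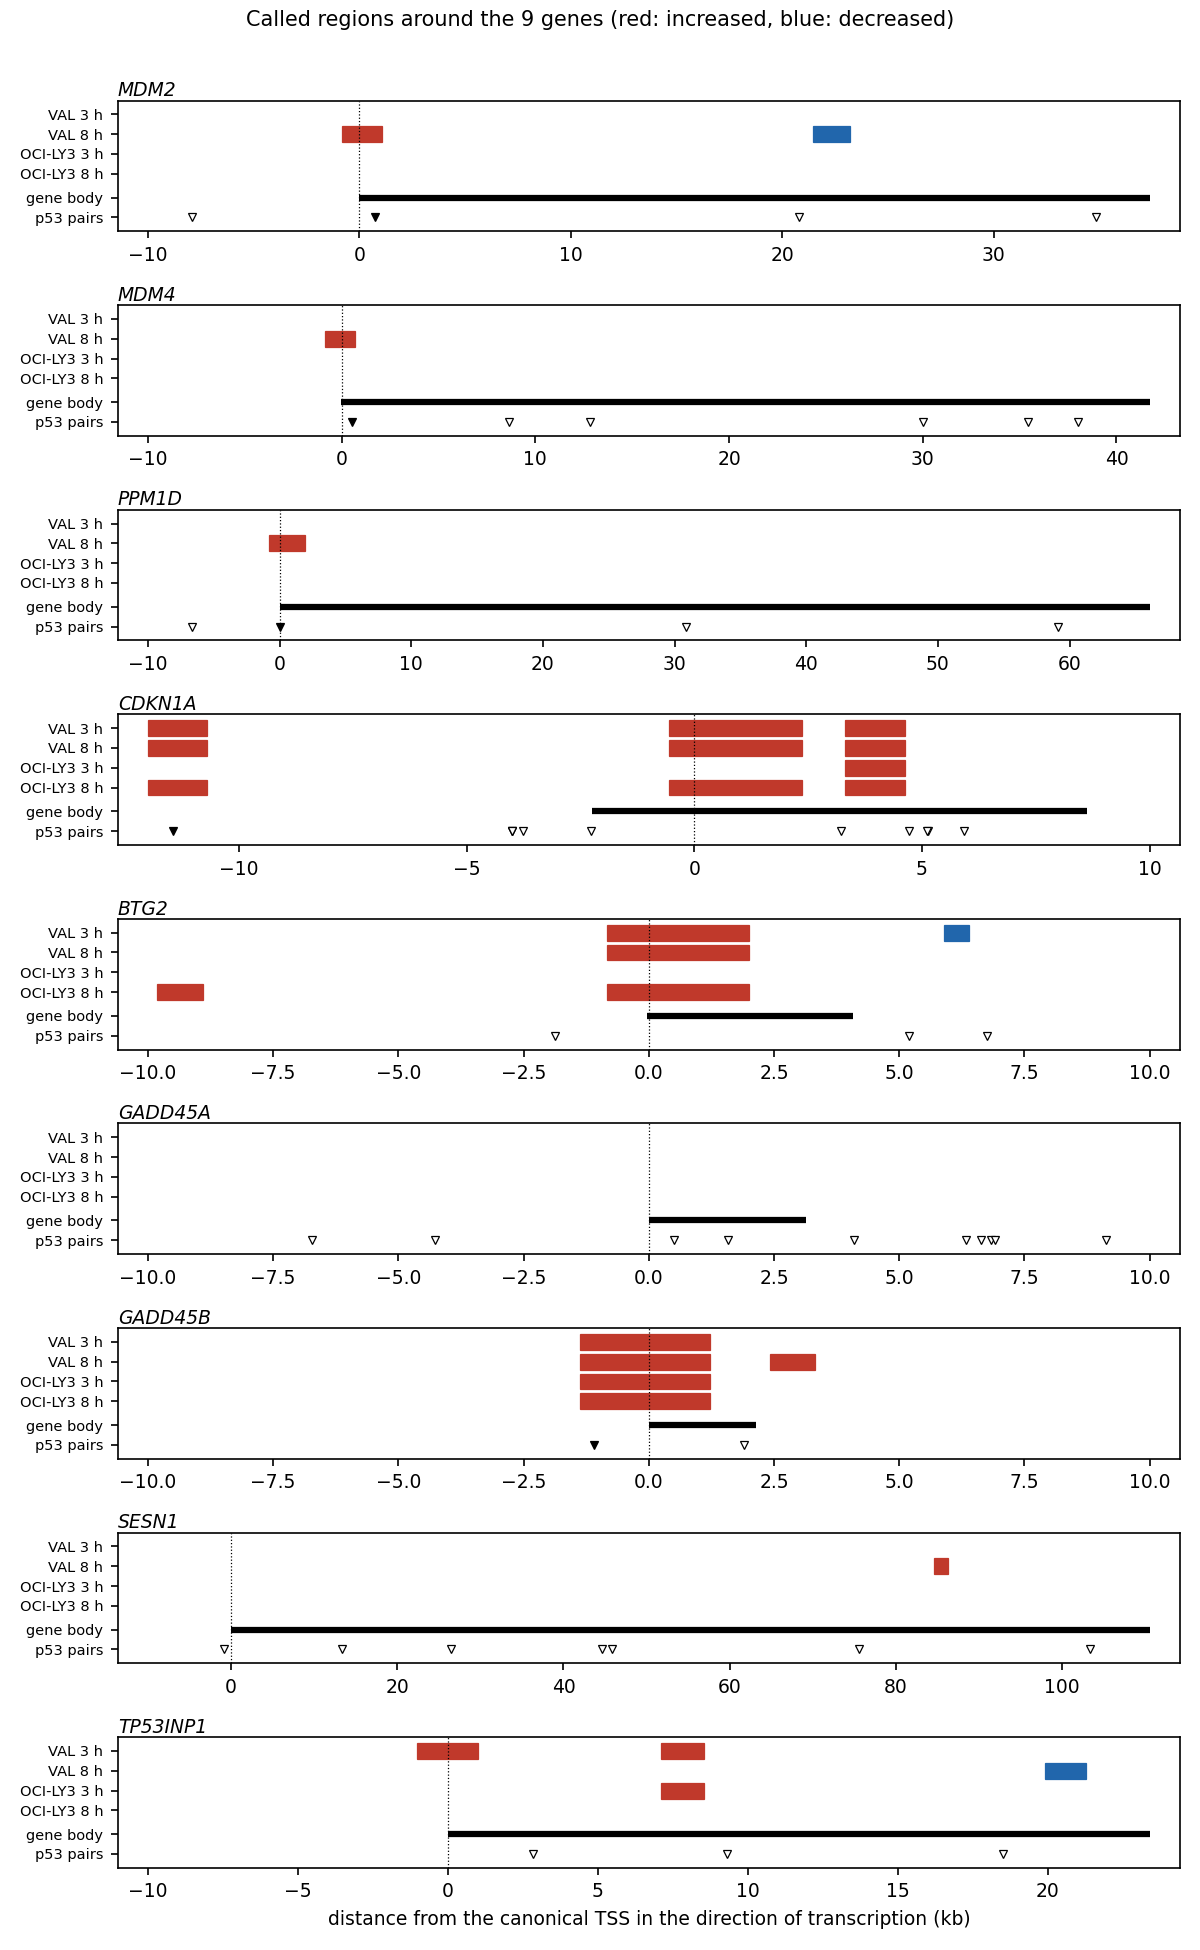
Called regions around each of the 9 genes by distance from the canonical TSS in kb, in the direction of transcription, with a row for each comparison (red, increased; blue, decreased), the gene body as a black bar and p53 pairs with at most 2 mismatches as triangles, filled where a called region contains the pair. The promoter regions of CDKN1A, BTG2 and GADD45B recur in several rows, 5 triangles of 50 are filled, and the panel of GADD45A holds no region.

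The lines share no libraries, so their lists at the same time could be set side by side. Of the 7 regions increased in VAL 3 h, 3 were also increased in OCI-LY3 3 h, which was 3 of 3 in OCI-LY3. At 8 h, 5 of 10 in VAL were shared, which was 5 of 6 in OCI-LY3. These 5 were the 3 regions of CDKN1A and the promoter regions of BTG2 and GADD45B, so neighbouring regions of the same gene are counted apart. Over all regions the shared share was 20.6% of the VAL list and 39.4% of the OCI-LY3 list at 3 h, and 20.9% and 53.3% at 8 h.

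Of the 8 increased promoter regions, 4 were among the widest in the series. CDKN1A, BTG2, PPM1D and GADD45B had promoter regions of 2608 to 2927 bp, a width that at most 1.55% of increased-only regions of the series reached, as read from the narrowest, GADD45B. Of those increased-only regions, 37.2% lay within 1 kb of the TSS of a protein-coding gene. Widths were not ranked among promoter regions alone, so whether these 4 are wide for promoters was not tested. The median of the 13 increased regions was 1762 bp and that of all increased-only regions 1320 bp. Their GC content had a median of 54.2% against 56.2%. The highest GC content was that of the TP53INP1 promoter region with 69.3%, and the lowest among increased regions that of its exon 2 region with 42.4%. The 3 decreased regions had between 40.4% and 45.7%. Wider regions can hold more matches to any motif by length alone, so shares among regions within 10% of the width of each are also given. For the 5 regions that held a p53 pair, CDKN1A, MDM4, MDM2, GADD45B and PPM1D in order of width, these shares were 15.1%, 15.5%, 17.9%, 24.6% and 26.3%.

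**Figure D4:**
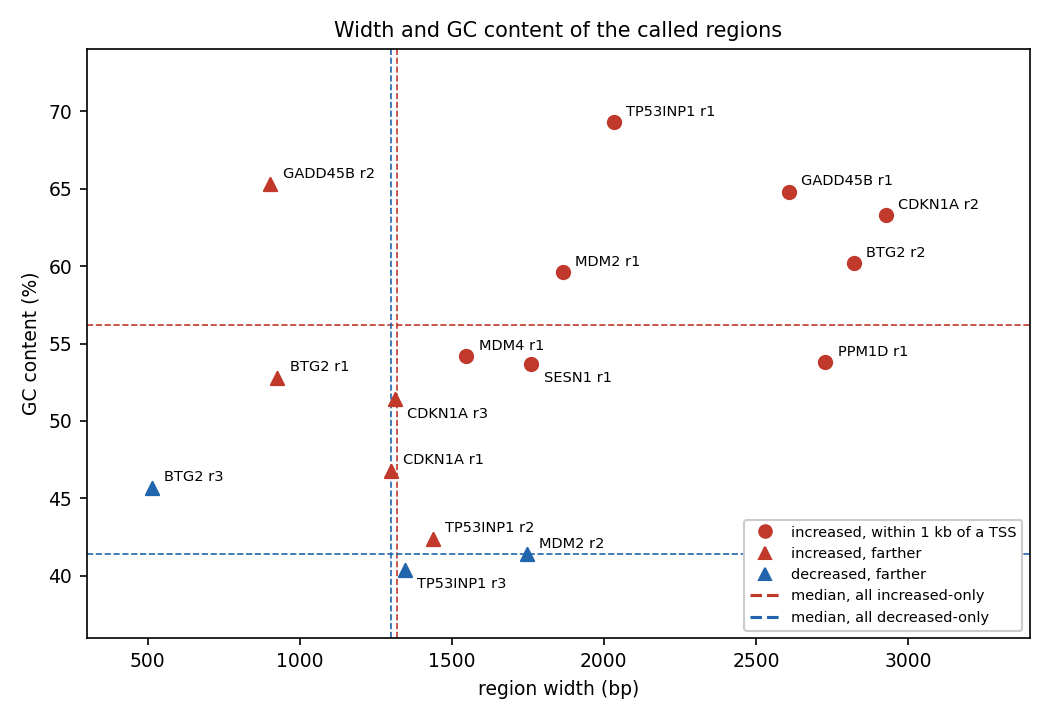
Width in bp and GC content in % of each of the 16 regions (r1 to r3 number the regions of a gene, in the order of the text's coordinates along the direction of transcription), with circles for regions within 1 kb of a TSS of their gene, triangles for those farther away, red for increased and blue for decreased. Dashed lines give the medians of all increased-only and decreased-only regions of the series, and 4 promoter regions lie at 2608 bp or more.

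The sequences just upstream of the TSS are shown for CDKN1A, BTG2 and GADD45B, whose promoter regions were increased in at least 3 of the 4 comparisons, and for MDM2 and PPM1D as examples of those increased in VAL 8 h alone. Each run is the 200 bases before the canonical TSS in GRCh37, 5′ to 3′ on the strand of the gene, and lies inside the increased region. Capitals mark GC boxes, whose letters are GGGCGG, boxes with the letters CCAAT, E-boxes, whose letters are CACGTG, and the CRE, on either strand, with overlapping matches run together.
CDKN1A, chr6:36646291-36646490: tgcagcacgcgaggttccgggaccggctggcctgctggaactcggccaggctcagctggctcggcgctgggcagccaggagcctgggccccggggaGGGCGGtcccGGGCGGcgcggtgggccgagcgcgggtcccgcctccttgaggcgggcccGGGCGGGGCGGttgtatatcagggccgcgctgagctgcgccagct
BTG2, chr1:203274447-203274646: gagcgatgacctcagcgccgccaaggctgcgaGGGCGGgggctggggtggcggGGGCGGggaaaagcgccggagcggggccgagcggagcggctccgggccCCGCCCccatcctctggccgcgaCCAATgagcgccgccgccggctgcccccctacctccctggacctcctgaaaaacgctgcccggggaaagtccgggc
GADD45B, chr19:2475925-2476124: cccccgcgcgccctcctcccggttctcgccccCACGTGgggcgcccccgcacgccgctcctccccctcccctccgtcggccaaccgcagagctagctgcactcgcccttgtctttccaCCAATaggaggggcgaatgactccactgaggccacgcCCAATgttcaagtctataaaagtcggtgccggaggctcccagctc
MDM2, chr12:69201757-69201956: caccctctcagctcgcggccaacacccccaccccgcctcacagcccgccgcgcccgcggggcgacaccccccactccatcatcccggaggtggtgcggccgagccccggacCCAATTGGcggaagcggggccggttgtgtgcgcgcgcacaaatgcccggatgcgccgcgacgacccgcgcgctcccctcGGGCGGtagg
PPM1D, chr17:58677354-58677553: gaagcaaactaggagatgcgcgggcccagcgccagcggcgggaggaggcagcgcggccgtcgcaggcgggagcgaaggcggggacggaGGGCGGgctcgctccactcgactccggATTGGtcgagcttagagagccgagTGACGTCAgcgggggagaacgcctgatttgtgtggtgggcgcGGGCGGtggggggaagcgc

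CDKN1A carried 4 GC boxes and BTG2 3, while GADD45B carried 0 GC boxes, 2 CCAAT boxes and 1 E-box. In MDM2 there were 1 GC box and 2 CCAAT boxes, the latter overlapping on opposite strands. PPM1D carried 2 GC boxes, 1 CCAAT box and 1 CRE. GC boxes were present in 7 of the 9 genes and in 56.5% of the 19819 stretches of the same length before the canonical TSS of a protein-coding gene, and CCAAT boxes in 6 of 9 and 30.3%. An E-box was present in 2 of 9 and 6.94%, and a CRE in 1 of 9 and 2.29%. The AP-1 element (TGACTCA or TGAGTCA) was present in 0 of 9 and 2.49%. Whole called regions held it in 6 of 16 and 19.3%, with 3 matches in the promoter region of CDKN1A, where 39.7% of regions of similar width held at least 1. The GC content of these stretches had a median of 76.0% over the 9 genes and 64.5% over all genes, and these shares were not adjusted for it.

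The other genes of the pathway were taken as 3 lists that exclude the 9, with 62 genes in all. Among 19 regulators of p53, 8 had an increased region in VAL 3 h, 11 in VAL 8 h, 4 in OCI-LY3 3 h and 9 in OCI-LY3 8 h. These are 42.1%, 57.9%, 21.1% and 47.4%, beside the shares of all genes of 17.0%, 37.0%, 10.7% and 19%. Among 30 further p53 targets it was 13, 19, 4 and 7 genes, or 43.3%, 63.3%, 13.3% and 23.3%. Among 13 relatives of the 9 genes, such as GADD45G, SESN2 and CDKN1B, it was 1, 5, 2 and 2 genes, or 7.69%, 38.5%, 15.4% and 15.4%. Decreased regions were counted for 1, 2, 1 and 1 of the regulators, for 3, 5, 2 and 4 of the targets, and for 0, 0, 0 and 1 of the relatives. For the targets these are 10.0%, 16.7%, 6.67% and 13.3%, beside 4.71%, 14.3%, 5.31% and 8.20% of all genes. No promoter region of the 62 genes was decreased in any comparison, beside 0.323% to 3.39% of all genes.

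**Figure D5:**
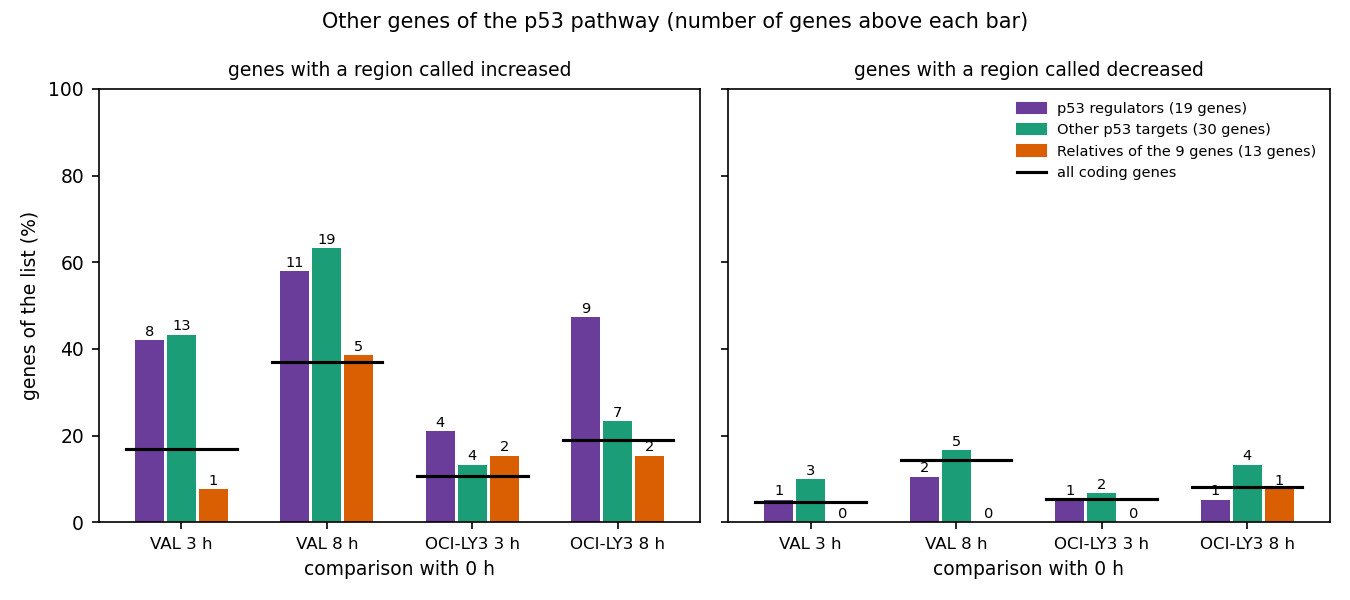
Share in % of the genes in 3 lists of the p53 pathway (19 regulators, 30 other targets, 13 relatives of the 9 genes) with a region called increased (left) or decreased (right) in each comparison, with the number of genes above each bar and the share of all protein-coding genes as a black line. For increased regions, the bars of regulators and targets lie above the line in all 4 comparisons, and the differences were not tested. These bars run from 13.3% (4 of 30 targets) against 10.7% in OCI-LY3 3 h to 63.3% against 37.0% in VAL 8 h. The bars of relatives lie below the line in VAL 3 h (7.69% against 17.0%) and OCI-LY3 8 h (15.4% against 19%). They lie above it in VAL 8 h and OCI-LY3 3 h. For decreased regions, the bars of targets also lie above the line in all 4 comparisons. Those of regulators do so in VAL 3 h alone.

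Further genes of these lists were named where promoter regions of the same direction were called in at least 3 of the 4 comparisons. Promoter regions increased in all 4 comparisons, as at GADD45B, were found at BAX, a pore-forming protein of apoptosis, at POLH, the DNA polymerase that copies past ultraviolet damage, at RPL11, a ribosomal protein that binds MDM2, and at USP7, which removes ubiquitin from MDM2 and p53. TRIAP1, a small p53-induced survival factor, had one in VAL at both times and in OCI-LY3 8 h. BAX lies on chromosome 19, where called regions were mostly increased as given above, and the part of this was not tested. PPM1G, a phosphatase related to PPM1D, had one in VAL 8 h and in OCI-LY3 at both times. CDKN1A and GADD45B shared their set of calls by the 10 kb or gene body rule, increased in all 4 comparisons and decreased in none, with 5.21% of all genes, in comparisons of which those of the same line share 0 h libraries. On the 3 lists these were BAX, DAXX, PIDD1, POLH, RPL11, TOB2, TRIAP1 and USP7. Of the 62 genes, 10 had decreased and no increased regions over the 4 comparisons, which is 16.1% beside 14% of all protein-coding genes. They were APAF1, ASCC3, CCNG1, COP1, E2F7, FAS, PMAIP1, PPM1B, RRM2B and ZMAT3, listed after their values were seen.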

How the data were processed

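ATAC-seq libraries of OCI-LY3 and VAL (4 for each of 6 conditions) were processed by the authors. Per the labels and the methods, the authors' alignment to hg19 used Bowtie2, peak calling per library used MACS2, and bedtools merged the peaks and counted reads in them. The authors then tested each treated time against 0 h with DESeq2. The threshold was a fold change above 1.5 in either direction, with an adjusted p-value below 0.01 by the methods text or up to 0.05 by a figure legend. The lists deposited by the authors hold chromosome, start and end, so the other values used here are coordinates in bp. There were 0 columns of per-sample values, and no test between groups could be made.

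Regions were assigned to genes with GENCODE release 44 on GRCh37, the sequence of hg19, and 0 regions ran past a chromosome end. TSS were those of transcripts tagged basic, within 10 kb, and promoters were within 1 kb. Regions were taken as the same where their coordinates were equal. Python 3.11.15, numpy 2.4.6, pysam 0.24.0 and matplotlib 3.10.9 were used, and the assignment and motif search were tested on simulated data. Named genes were the 9 members, other coding genes sharing a member region, and listed pathway genes either with a promoter region of the same direction in at least 3 of 4 comparisons or with the same calls as a member with at least 2 calls. The members and lists were chosen with earlier results of these data known. Alternatives varied the distance, the TSS set, the overlap, the gene background and the mismatches. No fit to counts was possible, and the standard and Fast-ATAC libraries could not be compared. A further item that the rule names is not reported here.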

Additional observations from a re-analysis of the deposited data

How the results depend on the processing

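Of 185 alternative values, 151 stayed close to the reported one, taken for counts as within 1.5 times and for shares of all genes as within the counting interval, which 0 of 16 shares did. Some of the 151 could not have moved, among them the 14 of region sharing and the narrower rules applied to a count of 0. Restricting regions to 1 kb of a TSS left 4, 1 and 3 increased regions in VAL 3 h, OCI-LY3 3 h and OCI-LY3 8 h, with 1 gene in OCI-LY3 3 h, and 0 decreased regions or genes in VAL at either time. A distance of 5 kb left 0 decreased regions and genes in VAL 3 h, and leaving out gene bodies left 0 in VAL 8 h. A distance of 25 kb gave 5 increased regions, 1 decreased region and 1 decreased gene in OCI-LY3 3 h. The increased counts of genes in VAL kept within 1.5 times under all alternatives run, including the one without GADD45B and PPM1D, which was chosen after seeing the data. With all annotated genes as background the shares were 8.93% for increased and 2.84% for decreased calls in VAL 3 h, 21.0% and 9.77% at 8 h, 5.43% and 3.20% in OCI-LY3 3 h and 10.0% and 5.15% at 8 h. Without chromosome 19 they were 15.4% and 5.06%, 34.8% and 15.4%, 9.78% and 5.68%, and 17.2% and 8.80%. Regions with a p53 pair numbered 1 with at most 1 mismatch, 10 with at most 3 and 2 with a spacer of 0 bases, beside 3.53%, 46.6% and 3.16% of all regions. Region sharing did not move with the overlap required. This could not be otherwise, since the authors merged peaks across libraries into a single set, in which regions are either equal or apart. No paired analysis was possible because the lists give coordinates and nothing measured in a single library, and for the same reason no library could be left out and no stricter threshold applied. The depth of the libraries is unknown and its limit on the calls cannot be given.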
